A study of Homo sapiens with 12 samples.

Results

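Imprinted genes are expressed mainly from the allele inherited from 1 parent, and their levels were described here in COLO320DM and SW480 colon cancer cells. The 10 genes are IGF2, H19, PEG10, MEST, PEG3, DLK1, MEG3, SNRPN, CDKN1C and KCNQ1OT1, chosen by name as autosomal imprinted genes. They are 10 of the 60623 genes in the deposited count table. RNA was sequenced after poly-A selection from 4 groups of 3 libraries, namely COLO320DM with pCMV6-HKDC1, COLO320DM with pCMV6-Entry, SW480 with pCMV6-HKDC1 and SW480 with pCMV6-Entry. Every group received 10 µg of plasmid with Lipofectamine 2000 for 24 h, so no library came from untransfected cells. pCMV6-HKDC1 expresses the hexokinase-family gene HKDC1 from the CMV promoter, and pCMV6-Entry is the empty vector. COLO320DM is an established line from a poorly differentiated colorectal tumour with neuroendocrine features and extrachromosomal copies of MYC, and SW480 is an established line from a primary colon adenocarcinoma. The labels do not say whether replicates were separate cultures, so p-values measure the spread between these libraries, which may be technical.

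At an imprinted locus, DNA methylation set in the egg or the sperm marks a control region, and the mark is kept in the cells of the body. The unmarked and the marked copy then differ in which genes they express. Several imprinted genes regulate fetal growth, and loss or gain of their normal expression is a known feature of colorectal cancer, best described for IGF2. Neither methylation nor the parental origin of the RNA was measured here, so the values below are total levels from both alleles.

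Library totals ranged from 33790733 to 45451279 counts. Replicate 1 stood apart from replicates 2 and 3 in every group, by a chi-squared per degree of freedom of 24.5 to 82.9, against 3.18 to 10.1 between replicates 2 and 3. HKDC1 itself measured 6575 to 9634 counts per 1000000 library counts after TMM scaling (CPM) in COLO320DM with the HKDC1 plasmid, against 0 to 0.0238 CPM with the empty vector. In SW480 it measured 12220 to 14300 CPM with the HKDC1 plasmid, against 34.04 to 38.4 CPM with the empty vector. The lines also differed in cell type markers. Of 10 colon epithelial markers, 5 averaged at least 1 CPM in COLO320DM and 8 in SW480, with summed levels of 1577 to 1789 CPM in COLO320DM and 6582 to 9485 CPM in SW480. EPCAM, an epithelial adhesion molecule, reached 1.36 to 2.32 CPM in COLO320DM and 474 to 576 CPM in SW480, and the keratin gene KRT19 reached at most 0.143 CPM in COLO320DM. CDX2, the intestinal transcription factor, was at 1372 to 1554 CPM in COLO320DM and 8.55 to 24.5 CPM in SW480. The 8 neuroendocrine markers summed to 2.95 to 6.52 CPM in COLO320DM and 3.81 to 8.74 CPM in SW480, with INSM1 at 0 in every COLO320DM library. CHGB was higher in COLO320DM at 1.25 to 2.68 CPM, against 0.341 to 0.659 CPM in SW480. SYP and NEUROD1 went the other way. With the empty vector SYP had 260 summed counts in COLO320DM and 585 in SW480, and NEUROD1 had 12 in COLO320DM and 61 in SW480. Of 5 leukocyte markers, PTPRC alone averaged at least 1 CPM in COLO320DM (29 to 38.3 CPM) and none did in SW480, while 2 of 6 fibroblast markers did so in each line. Endothelial markers summed to at most 0.231 CPM in COLO320DM and 1.17 CPM in SW480. The part of these differences in the levels below was not tested.

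**Figure D1:**
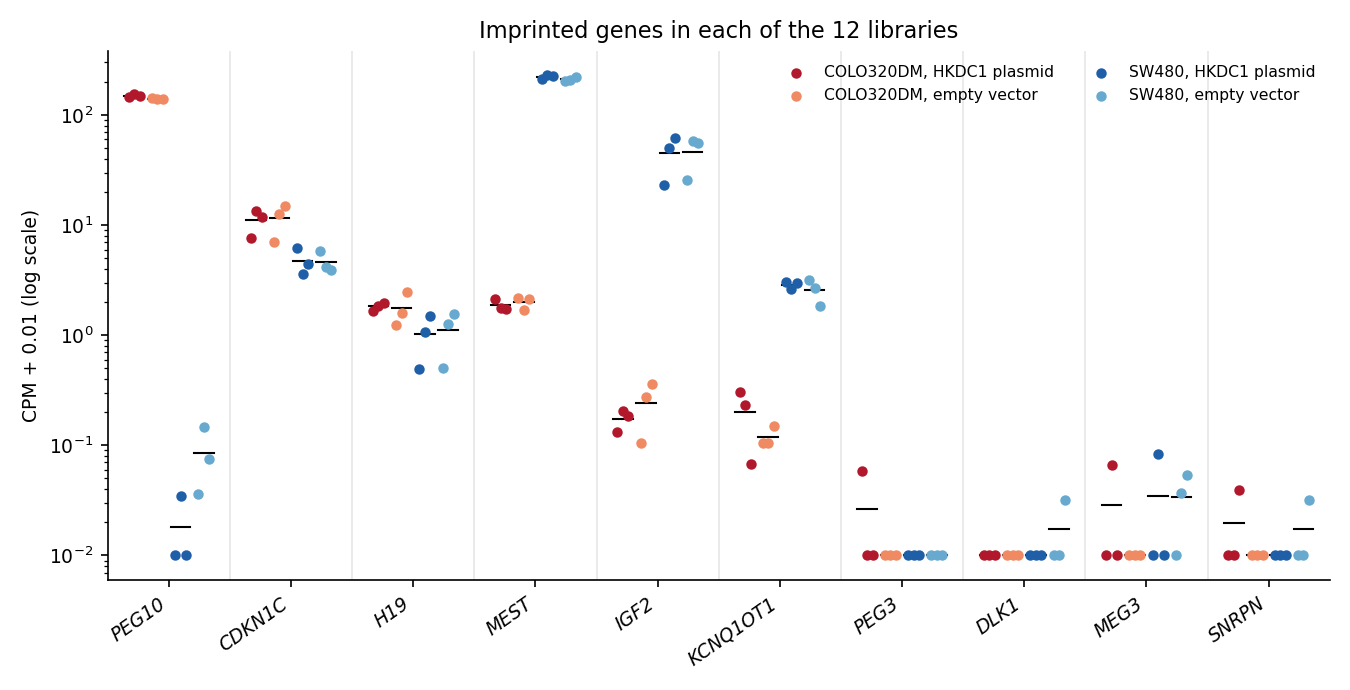
Level of each of the 10 imprinted genes in the 12 libraries, as CPM + 0.01 on a log axis. Points are libraries and black lines are means of 3. PEG10 lies at 138.5 to 154.4 CPM in COLO320DM, MEST at 203.0 to 231.6 CPM in SW480, and PEG3, DLK1, MEG3 and SNRPN lie under 0.1 CPM everywhere.

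Between the lines, PEG10 and CDKN1C were higher in COLO320DM, and IGF2, MEST and KCNQ1OT1 were lower there. H19 did not pass the test, and PEG3, DLK1, MEG3 and SNRPN were too low to test. Of the 6 genes tested, 5 were called between COLO320DM and SW480 (edgeR adjusted p under 0.05, 2 higher and 3 lower) with the empty vector, and the same 5 with the HKDC1 plasmid. Across all 23684 genes tested, 71.6% were called between the lines with the empty vector and 70.8% with the HKDC1 plasmid, and by direction 34.3% were higher and 37.3% lower with the empty vector, 33.5% and 37.4% with the HKDC1 plasmid. A call of this kind was thus common, and 5 of 6 is not read as a result about imprinted genes. PEG10, IGF2 and KCNQ1OT1 passed the filter on low counts through the line in which they were high, and such a gene had to differ. The median log2 fold change of the 6 genes was −1.92 with the empty vector and −1.50 with the HKDC1 plasmid, against −0.04 and −0.05 over all genes. With the empty vector the 6 values ran from −7.61 for IGF2 to 10.82 for PEG10. The median lay in the gap between −4.50 for KCNQ1OT1 and 0.66 for H19, so it is not read as a shift of these genes. In RNA from many cells, fewer expressing cells and less RNA per cell cannot be told apart.

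IGF2 (ENSG00000167244, chr11:2129112-2141238, minus strand, GRCh38) encodes insulin-like growth factor 2, a fetal growth factor made from the paternal allele in most tissues. In COLO320DM it had 5, 7 and 6 counts with the HKDC1 plasmid and 4, 11 and 15 with the empty vector. In SW480 it had 814, 2052 and 2150 counts with the HKDC1 plasmid and 982, 2148 and 2506 with the empty vector. The lines did not overlap, and replicate 1 was the lowest SW480 library in both plasmid groups. Its level averaged 0.234 ± 0.129 CPM in COLO320DM and 46.3 ± 18.2 CPM in SW480 with the empty vector (SD, n = 3 each). The log2 fold change was −7.61 with the empty vector (SE 0.52, edgeR adjusted p = 2.29e-08) and −8.09 with the HKDC1 plasmid (SE 0.56, edgeR adjusted p = 2.45e-08). Without replicate 1 of all 4 groups it was −7.54 with the empty vector and −8.20 with the HKDC1 plasmid. From summed counts, SW480 exceeded COLO320DM by 199-fold with the empty vector (95% counting interval 139 to 295).

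Other annotated transcripts at the IGF2 locus showed the same direction, and where exons overlap their reads cannot be told apart. A second IGF2 entry (ENSG00000284779) covers the same exons over 4424 bases, 79.2% of its length, and had 4 to 15 counts in COLO320DM and 782 to 2381 in SW480. INS-IGF2, a read-through transcript that shares 998 exon bases with IGF2, had 0 to 2 counts in COLO320DM and 149 to 443 in SW480. The antisense gene IGF2-AS had 0 to 2 counts in COLO320DM and 6 to 29 in SW480. INS, the insulin gene next door, was at 0 in all 12 libraries.

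H19 (ENSG00000130600, chr11:1995176-2001470, minus strand) is the maternally expressed long non-coding RNA that shares enhancers and a CTCF-bound control region with IGF2. It had 68, 66 and 68 counts in COLO320DM with the HKDC1 plasmid and 52, 66 and 106 with the empty vector. SW480 had 17, 43 and 52 counts with the HKDC1 plasmid and 19, 46 and 71 with the empty vector. The lines overlapped, and replicate 1 was again lowest in SW480. The log2 fold change was 0.66 with the empty vector (SE 0.42, edgeR adjusted p = 0.173) and 0.85 with the HKDC1 plasmid (SE 0.43, edgeR adjusted p = 0.0889). With the HKDC1 plasmid, leaving out single libraries moved it past the threshold. It passed without SW480 HKDC1 replicate 3 (log2 fold change 1.23, edgeR adjusted p = 0.0404) and without SW480 Entry replicate 1 (0.86, edgeR adjusted p = 0.0327). Without replicate 1 of all 4 groups the values were 0.50 with the empty vector (edgeR adjusted p = 0.0588) and 0.61 with the HKDC1 plasmid (edgeR adjusted p = 0.032).

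The balance of IGF2 to H19 differed between the lines in every library. IGF2 had 0.0735 to 0.167 counts for each H19 count in COLO320DM, and 35.3 to 51.7 in SW480. Within SW480, IGF2 counts spanned 814 to 2506 and H19 counts 17 to 71, and the replicate 1 libraries were lowest for both. These are ratios of counts, not of levels per length.

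PEG10 (ENSG00000242265, chr7:94656325-94669695, plus strand) is a paternally expressed gene derived from a retrotransposon and needed for placenta formation in mice. It had 5959, 5519 and 5099 counts in COLO320DM with the HKDC1 plasmid and 6060, 5913 and 5987 with the empty vector. SW480 had 0, 1 and 0 counts with the HKDC1 plasmid and 1, 5 and 3 with the empty vector. The lowest COLO320DM library thus had 5099 counts and the highest SW480 library 5. PEG10 averaged 141 ± 2.13 CPM in COLO320DM and 0.0760 ± 0.0558 CPM in SW480 with the empty vector (SD, n = 3 each). The log2 fold change with the empty vector was 10.82 (SE 0.21, edgeR adjusted p = 4.94e-13), and 11.43 without SW480 Entry replicate 2, the library with 5 counts. The ratio of summed counts with the empty vector was 1888, with a 95% counting interval of 994.3 to 4129. With the HKDC1 plasmid the summed counts were 16577 in COLO320DM and 1 in SW480, a ratio of 16530 with a 95% counting interval of 2966 to 652900. The fitted log2 value there, 13.58 (SE 0.26, edgeR adjusted p = 4.31e-13), depends on the single SW480 count and became 15.51 without SW480 HKDC1 replicate 2, which holds it. The SE of both fits is smaller than the counting error of the few SW480 counts, so it does not measure their precision.

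SGCE, the paternally expressed ε-sarcoglycan gene that starts 247 bases from PEG10 on the opposite strand, followed the same pattern. It had 983, 994 and 799 counts in COLO320DM with the HKDC1 plasmid and 1051, 1093 and 1163 with the empty vector. SW480 had 4, 4 and 3 counts with the HKDC1 plasmid and 2, 5 and 6 with the empty vector. Its log2 fold change was 7.87 with the empty vector (SE 0.21) and 7.93 with the HKDC1 plasmid (SE 0.21, edgeR adjusted p = 2.75e-12). The annotated exons of both genes share 219 bases, 1.05% of the exon length of SGCE. Farther along 7q21, PPP1R9A was lower in COLO320DM (13 to 16.4 CPM) than in SW480 (35.4 to 56.4 CPM). CALCR reached at most 0.141 CPM and TFPI2 at most 0.0476 CPM in COLO320DM, and both stayed at or below 2 counts in SW480.

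MEST (ENSG00000106484, chr7:130486171-130506465, plus strand) encodes a paternally expressed protein of the α/β-hydrolase family that promotes fetal growth in mice. COLO320DM had 87, 63 and 60 counts with the HKDC1 plasmid and 93, 70 and 91 with the empty vector. In SW480 there were 7495, 9470 and 7867 counts with the HKDC1 plasmid and 7826, 7657 and 10109 with the empty vector. Every SW480 library lay far above every COLO320DM library. MEST averaged 1.99 ± 0.281 CPM in COLO320DM and 211 ± 9.89 CPM in SW480 with the empty vector (SD, n = 3 each). The log2 fold change was −6.73 with the empty vector (SE 0.13, edgeR adjusted p = 4.72e-13) and −6.89 with the HKDC1 plasmid (SE 0.13, edgeR adjusted p = 4.2e-13).

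The MEST exons overlap those of a neighbour, which bears on the low COLO320DM count. COPG2, a coatomer subunit gene on the opposite strand, shares 228 exon bases with MEST, 5.51% of its exon length. That share of the COPG2 counts comes to 72 to 99 in COLO320DM, against 60 to 93 counts of MEST there. In SW480 it comes to 129 to 186, against 7495 to 10109 counts of MEST. How far COPG2 reads entered the MEST count was not tested, and the labels name no step that marks strand. At the same locus, KLF14 had 0 or 1 counts in COLO320DM and 4 to 27 in SW480, CPA4 0 to 4 in COLO320DM and 0 to 11 in SW480, and COPG2IT1 0 to 6 in COLO320DM and 7 to 21 in SW480. COPG2 itself ranged from 35.5 to 42.8 CPM in COLO320DM and from 62.7 to 74.1 CPM in SW480.

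MESTIT1, an antisense transcript from the same imprinted region, had 0 counts in all 6 COLO320DM libraries and 465 to 693 in SW480. Against a floor of 3 counts over the group, MESTIT1 was at least 619-fold lower in COLO320DM with the empty vector and at least 567-fold lower with the HKDC1 plasmid. An unnamed antisense gene within MEST (ENSG00000270823) had 0 to 4 counts in COLO320DM and 2166 to 2858 in SW480, and shares 602 exon bases with MEST. MESTIT1 shares 484 exon bases with MEST, 11.8% of its own exon length and 10.2% of that of MEST, so reads of MEST on those bases cannot be told apart from its own. The starts of MEST and MESTIT1 are shown because both entries were lower in COLO320DM. Each RefSeq window on GRCh38 runs from 250 bases before the start to 50 bases from it on, 5′ to 3′ on the strand of the gene, with CpG dinucleotides in capitals.
MEST, chr7:130491808-130492107, plus strand: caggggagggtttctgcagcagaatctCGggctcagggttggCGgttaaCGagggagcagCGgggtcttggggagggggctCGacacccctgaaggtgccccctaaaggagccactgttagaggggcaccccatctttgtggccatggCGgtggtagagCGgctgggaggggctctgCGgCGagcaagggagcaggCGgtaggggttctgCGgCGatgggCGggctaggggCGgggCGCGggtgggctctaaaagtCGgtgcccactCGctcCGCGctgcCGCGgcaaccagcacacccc
MESTIT1, chr7:130490928-130491227, minus strand: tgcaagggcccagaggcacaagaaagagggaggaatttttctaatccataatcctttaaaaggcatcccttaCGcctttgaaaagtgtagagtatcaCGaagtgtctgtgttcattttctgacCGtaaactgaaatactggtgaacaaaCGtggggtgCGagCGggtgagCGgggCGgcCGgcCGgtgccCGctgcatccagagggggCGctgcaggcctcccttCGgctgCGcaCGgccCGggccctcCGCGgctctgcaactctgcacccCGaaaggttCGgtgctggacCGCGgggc
Both windows hold 22 CpGs, against a median of 14 and an upper quartile of 28 over all 35116 windows. MEST has 5 such windows, and the window shown is the first to lie past that of MESTIT1. The motif TGCCGC, which ZFP57 binds when methylated, occurs 2 times in the MEST window, counting both strands (GCGGCA on the other), and 0 times in the MESTIT1 window, and 16.7% of all windows hold it. Of the 10 genes, 4 (H19, MEST, MEG3 and SNRPN) had windows, and 9 of their 13 windows held the motif. By gene these were 4 of 5 windows of MEST, 2 of 4 of SNRPN, 3 of 3 of MEG3 and 0 of 1 of H19. Windows of 1 gene are not independent and CpG content was not matched, so this is not read as an enrichment. PEG10, IGF2, PEG3, DLK1, CDKN1C and KCNQ1OT1 have no entry there.

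An intron of MEST also holds the microRNA gene MIR335, which was listed at 0 counts in all 12 libraries. Its mature products, from RefSeq on GRCh38, are shown as part of the locus, with the seed (bases 2 to 8) in capitals.
hsa-miR-335-5p: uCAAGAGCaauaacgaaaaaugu
hsa-miR-335-3p: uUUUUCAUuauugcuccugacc
The seeds differ between the arms. Poly-A selection of long RNA does not capture mature microRNAs, so these counts say nothing of their level.

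CDKN1C (ENSG00000129757, chr11:2883213-2885773, minus strand) encodes p57, a maternally expressed inhibitor of cyclin-dependent kinases that restrains growth. It had 310, 484 and 412 counts in COLO320DM with the HKDC1 plasmid and 296, 534 and 640 with the empty vector. SW480 had 218, 148 and 155 counts with the HKDC1 plasmid and 222, 152 and 178 with the empty vector. The lines did not overlap, but they came close in replicate 1. There CDKN1C measured 7.56 CPM in COLO320DM and 6.195 CPM in SW480 with the HKDC1 plasmid, and 6.97 CPM in COLO320DM and 5.76 CPM in SW480 with the empty vector. In replicates 2 and 3 it measured 11.9 to 14.8 CPM in COLO320DM and 3.62 to 4.44 CPM in SW480. The log2 fold change was 1.32 with the empty vector (SE 0.30, edgeR adjusted p = 0.00137) and 1.21 with the HKDC1 plasmid (SE 0.30, edgeR adjusted p = 0.00263). Without replicate 1 of all 4 groups these values were 1.77 and 1.68.

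KCNQ1OT1 (ENSG00000269821, chr11:2608328-2699994, minus strand) is a paternally expressed antisense RNA that silences CDKN1C and its neighbours in cis. It had 12, 8 and 2 counts in COLO320DM with the HKDC1 plasmid and 4, 4 and 6 with the empty vector. SW480 had 107, 108 and 103 counts with the HKDC1 plasmid and 121, 98 and 84 with the empty vector. No COLO320DM library came near the lowest SW480 library. The log2 fold change was −4.50 with the empty vector (SE 0.39, edgeR adjusted p = 2.6e-07) and −3.85 with the HKDC1 plasmid (SE 0.37, edgeR adjusted p = 6.37e-07). The gene is annotated as 1 exon of 91667 bases within KCNQ1, with 121 exon bases shared, and its reads cannot be told apart from unspliced KCNQ1 RNA without strand.

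The neighbours at 11p15.5 did not move as a block. Of 9 listed, 7 were tested, and 2 were higher and 5 lower in COLO320DM in both plasmid states. Across all genes tested, 34.3% were higher and 37.3% lower with the empty vector. The median log2 fold change of the 7 was −4.45 with the empty vector, against −0.04 over all genes. INS-IGF2, which shares exons with IGF2, and IGF2-AS, KCNQ1 and PHLDA2 passed the filter on low counts through SW480. The counts and the median are thus given as a description. PHLDA2, a maternally expressed placental growth regulator, had 2 to 10 counts in COLO320DM and 293 to 821 in SW480 (log2 fold change −6.28, SE 0.37 with the empty vector). KCNQ1, a potassium channel gene, had 0 to 4 counts in COLO320DM and 21 to 49 in SW480. SLC22A18, a transporter gene, was higher in COLO320DM at 4.55 to 10.6 CPM, against 1.11 to 4.63 CPM in SW480, with a log2 fold change of 1.29 (SE 0.43) with the empty vector. Its antisense partner SLC22A18AS shares 227 exon bases with it and had 37 to 86 counts in COLO320DM and 10 to 33 in SW480. OSBPL5, an oxysterol-binding protein gene, was at 9.23 to 13.2 CPM in COLO320DM and 14.8 to 27.3 CPM in SW480. KCNQ1DN had 0 to 2 counts in COLO320DM and 0 or 1 in SW480.

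**Figure D2:**
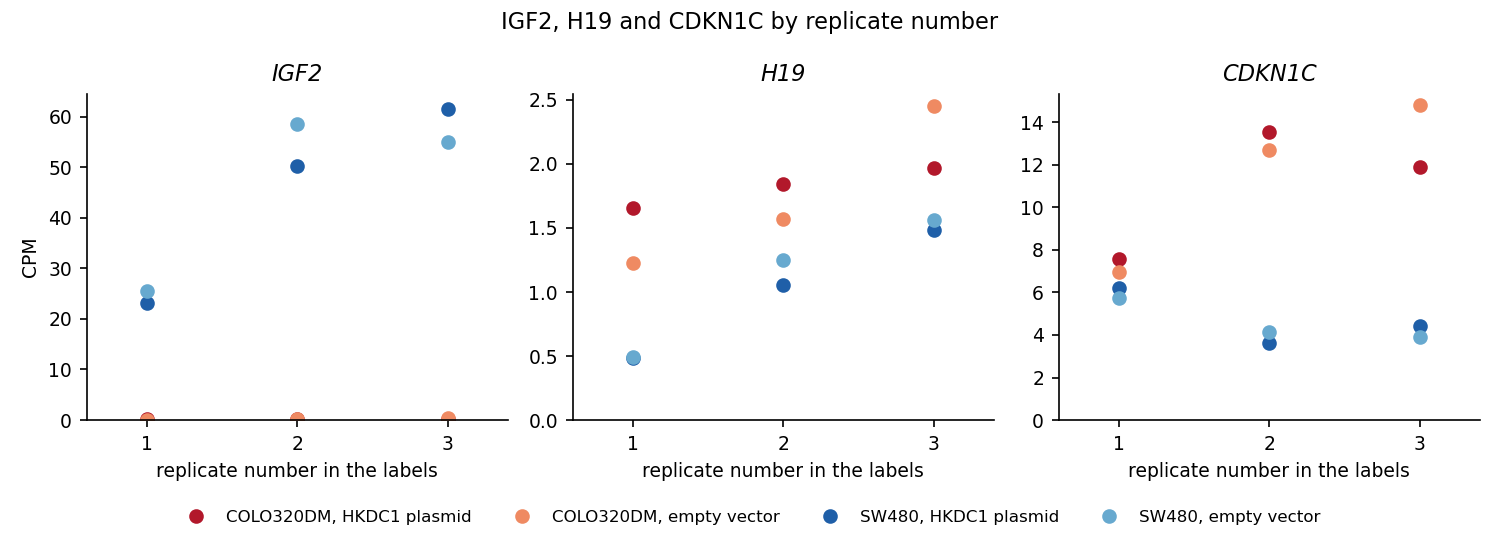
IGF2, H19 and CDKN1C in CPM against the replicate number in the labels, with colours for the 4 groups. In SW480, replicate 1 is lowest for IGF2 and H19 and highest for CDKN1C, and in COLO320DM it is lowest for CDKN1C.

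DLK1 and MEG3 lie side by side at 14q32, where DLK1 (ENSG00000185559, chr14:100725705-100738224, plus strand) encodes a paternally expressed ligand-like inhibitor of differentiation and MEG3 (ENSG00000214548, chr14:100779410-100861031, plus strand) a maternally expressed long non-coding RNA. DLK1 had 0 counts in COLO320DM and 1 in SW480, in Entry replicate 3. MEG3 had 2 counts in COLO320DM, both in HKDC1 replicate 2, and 6 in SW480 over 3 libraries. Over the 6 libraries of a line this is 0 CPM for DLK1 in COLO320DM, where 3 counts would be 0.0126 CPM. The exact Poisson interval of MEG3 was 0.00101 to 0.0302 CPM in COLO320DM and 0.00950 to 0.0563 CPM in SW480. RTL1, MEG8 and MEG9, between these genes and the far end of the domain, had 0 counts in COLO320DM and at most 0.0286 CPM in SW480. DIO3, the thyroid hormone-inactivating deiodinase at the far end, had 0 or 1 counts in COLO320DM and 170 to 386 in SW480. DIO3OS, the transcript opposite DIO3, had 0 counts in COLO320DM and 399 to 693 in SW480, at least 558-fold lower in COLO320DM with the empty vector.

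SNRPN (ENSG00000128739, chr15:24823637-24978723, plus strand) is a paternally expressed gene for a splicing protein in the Prader-Willi region. It had 1 count in COLO320DM, in HKDC1 replicate 3, and 1 in SW480, in Entry replicate 3. SNURF, which shares its transcript and 814 exon bases, had 1 count in COLO320DM and 0 in SW480, and the bicistronic entry ENSG00000214265, with 541 shared exon bases, had 1 in each line. How reads shared by these entries were counted is not given in the sources used here, and its part in the low counts was not tested. At another locus, ENSG00000240801, with all 373 exon bases within IGF2 on the same strand, had 135 to 445 counts in SW480. Whether this bears on the SNRPN entries was not tested. The related gene SNRPB, which is not imprinted, was at 199 to 244 CPM in COLO320DM and 315.5 to 370.9 CPM in SW480. The start that SNRPN shares with SNURF lies in the imprinting centre of the region and is shown, from RefSeq on GRCh38 with CpGs in capitals, because the entries that start there held single counts at most in either line.
SNRPN, chr15:24954737-24955036, plus strand: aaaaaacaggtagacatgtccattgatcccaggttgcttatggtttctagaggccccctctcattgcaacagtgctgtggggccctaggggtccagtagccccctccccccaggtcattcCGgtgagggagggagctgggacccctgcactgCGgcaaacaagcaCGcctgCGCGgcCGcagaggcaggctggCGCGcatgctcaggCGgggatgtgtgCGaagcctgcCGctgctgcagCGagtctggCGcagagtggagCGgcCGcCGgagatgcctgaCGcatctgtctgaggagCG
The window holds 18 CpGs and 2 copies of TGCCGC counted on both strands.

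Of 10 listed neighbours at 15q11-q13, 9 were in the table and 4 were tested, of which 1 was higher and 3 were lower in COLO320DM. With 71.6% of all genes called with the empty vector, this is not read as a result about the locus. SNHG14, the long host transcript that continues downstream of SNRPN and contains UBE3A antisense RNA, was at 9.07 to 12.2 CPM in COLO320DM and 12.6 to 13.6 CPM in SW480. Its log2 fold change was −0.33 with the empty vector (SE 0.12), and it shares 246 exon bases with UBE3A on the opposite strand. That share of the UBE3A counts comes to 51 to 80 in COLO320DM, against 341 to 517 counts of SNHG14. In SW480 it comes to 67 to 101, against 441 to 619 counts of SNHG14. How far UBE3A reads, spliced or unspliced, entered the SNHG14 count was not tested. UBE3A, a ubiquitin ligase gene, was at 74.3 to 98.2 CPM in COLO320DM and 100.3 to 116.1 CPM in SW480. MKRN3, a paternally expressed ring-finger gene, was higher in COLO320DM, with 245 to 334 counts against 20 to 40 in SW480 (log2 fold change 3.42, SE 0.23 with the empty vector). ATP10A, a phospholipid-transporting ATPase gene, was at 0 in COLO320DM and at 0.114 to 0.681 CPM in SW480. NDN and NPAP1 were at 0 in all 12 libraries, and MAGEL2 and PWRN1 had 0 or 1 counts in COLO320DM and 0 in SW480. IPW was not analysed here.

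PEG3 (ENSG00000198300, chr19:56810077-56840728, minus strand) encodes a paternally expressed zinc-finger protein. It had 2 counts in COLO320DM, both in HKDC1 replicate 1, and 0 in SW480, which allows up to 0.0129 CPM at 3 counts over the 6 libraries. ZIM2, MIMT1 and USP29, its imprinted neighbours, were at 0 in all 12 libraries, and PEG3-AS1 was not analysed here. ZNF264, another zinc-finger gene at 19q13.43, had 462 to 645 counts in COLO320DM and 0 or 1 in SW480, and was at least 591-fold higher in COLO320DM with the empty vector.

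Levels of different genes can be ordered only per exon length. In COLO320DM the order was PEG10 at 21.7 CPM per kilobase of exon (RPKM), CDKN1C at 4.54, then H19 at 0.617 and MEST at 0.405, and the remaining 6 genes at 0.0318 RPKM or less. H19 and MEST exchanged places when the longest transcript was used as the length. In SW480 MEST led with 45.6 RPKM, followed by IGF2 at 7.29, CDKN1C at 1.89, H19 at 0.364 and KCNQ1OT1 at 0.0296 RPKM. PEG10, first in COLO320DM, was sixth in SW480 at 0.00629 RPKM.

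With thresholds chosen after the values were seen, a gene was taken as on in a line at 1 CPM or more in all 6 libraries and as off below 0.1 CPM in all 6. CDKN1C was on in both lines, and so was the MEST count, whose share of COPG2 reads in COLO320DM was not tested. PEG3, DLK1, MEG3 and SNRPN were off in both. None of the 10 genes was on in COLO320DM and off in SW480, or the reverse. PEG10 missed it in SW480 through Entry replicate 2 at 0.136 CPM, and IGF2 reached 0.347 CPM and KCNQ1OT1 0.293 CPM in COLO320DM. Among the 18004 genes on in a line, 1.69% were on in COLO320DM and off in SW480, and 3.63% the reverse. All 6 libraries of a line lay apart from all 6 of the other for PEG10, CDKN1C, MEST, IGF2 and KCNQ1OT1, as for 65.3% of all genes tested (31.1% higher and 34.2% lower in COLO320DM). H19 was on in COLO320DM and between the thresholds in SW480.

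**Figure D3:**
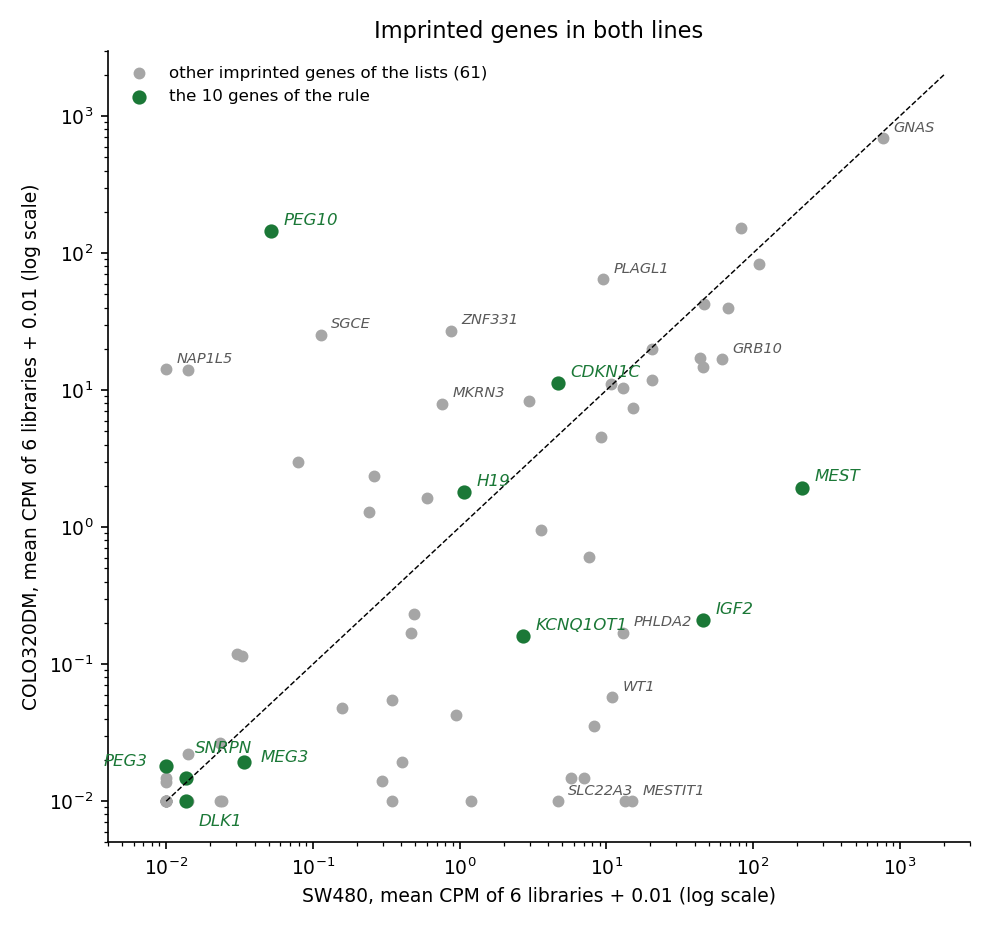
Mean CPM + 0.01 over 6 libraries in COLO320DM (vertical) and SW480 (horizontal), both on log axes, for the 10 genes (green) and 61 other imprinted genes of the lists (grey). The dashed line marks equal levels. PEG10 lies far above it, MEST, IGF2 and KCNQ1OT1 lie far below, and 4 genes sit at the lower left corner.

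Of 63 other imprinted genes listed, 61 were in the table and 42 were tested, of which 12 were higher in COLO320DM, 26 were lower and 4 did not pass the test with the empty vector. The share called was 90.5% of the 42, against 71.6% of all genes. The median log2 fold change of the 42 was −1, against −0.04 over all genes. Of the 42, 10 had 0 counts in all 3 libraries of a line with the empty vector, and such genes passed the filter on low counts through the other line, so these counts are given as a description. With the HKDC1 plasmid the counts were 12 higher, 25 lower and 5 not called. At loci away from the 10 genes, NAP1L5, ZNF331 and ZNF597 led the higher genes and DDC, SLC22A3 and WT1-AS the lower by fitted log2 fold change with the empty vector, which for a gene at 0 in a line gives no true order of size. NAP1L5, a nucleosome assembly gene, had 505 to 612 counts in COLO320DM and 0 in SW480, at least 558-fold higher with the empty vector. ZNF331 had 981 to 1238 counts in COLO320DM and 19 to 43 in SW480, and ZNF597 82 to 153 in COLO320DM and 0 to 8 in SW480. SLC22A3, an organic cation transporter gene, had 0 counts in COLO320DM and 126 to 251 in SW480. DDC, which encodes aromatic amino acid decarboxylase, had 0 or 1 in COLO320DM and 185 to 297 in SW480. WT1-AS, antisense to the WT1 tumour-suppressor gene, had 0 in COLO320DM and 37 to 56 in SW480, at least 47.9-fold lower with the empty vector. WT1 itself, named after its values were seen, had 0 to 4 counts in COLO320DM and 356 to 475 in SW480, and by summed counts SW480 exceeded COLO320DM by 260-fold with the empty vector (95% counting interval 111 to 801).

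Of 24 genes that set or read imprints and DNA methylation, 19 were tested, and 5 were higher and 10 lower in COLO320DM with the empty vector, with a median log2 fold change of −0.28. The share called was 78.9%, against 71.6% of all genes, and is not read as a result about this list. CTCFL, the germline relative of the insulator protein CTCF, had 3 to 6 counts in COLO320DM and 1873 to 2519 in SW480 (log2 fold change −8.62, SE 0.15 with the empty vector). CTCF was at 74.6 to 83.7 CPM in COLO320DM and 71.3 to 84.5 CPM in SW480. TET1, which oxidises methylcytosine, was higher in COLO320DM at 48.4 to 55.6 CPM, against 4.35 to 6.59 CPM in SW480 (log2 fold change 3.35, SE 0.15). SETDB1 and ZNF445 were higher by log2 fold changes of 0.86 and 0.59, and TRIM28 and DNMT1, the maintenance methyltransferase, had −0.86 and −0.81. ZFP57 was at 0 in COLO320DM and at most 0.0245 CPM in SW480.

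In the insulin-like growth factor pathway, 18 of 22 listed genes were tested, and 7 were higher and 8 lower in COLO320DM with the empty vector, with a median of −0.16. The share called was 83.3%, against 71.6% of all genes, and is not read as a result about the pathway. IGF2R, the receptor that clears IGF2, was at 70.7 to 77.5 CPM in COLO320DM and 164 to 206 CPM in SW480. IGF1R, the signalling receptor, did not pass the test (log2 fold change −0.03, SE 0.18, edgeR, with the empty vector). IGFBP5 and IGFBP2, which bind the growth factors, were higher in COLO320DM by 5.23 and 1.83, and PAPPA, a protease of such binding proteins, by 3.25. IGFBP3 had 0 to 4 counts in COLO320DM and 1137 to 1668 in SW480, IGF1 had 0 in COLO320DM and 34 to 55 in SW480, and IGFBP1 had 0 in COLO320DM and 3 to 27 in SW480. All 4 closest relatives of the 10 genes were called between lines with the empty vector, where 71.6% of all genes were, so this is not read as a result about them. CDKN1A, the relative of CDKN1C that encodes p21, had 24 to 51 counts in COLO320DM and 661 to 2907 in SW480, the opposite direction to CDKN1C, and its lowest SW480 counts were in replicate 1. CDKN1B was higher in COLO320DM by 0.81, and DLK2 and SNRPB had log2 fold changes of −1.58 and −0.61.

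The genes nearest in profile were found by the root mean square difference of centred log2(CPM + 0.5) over the 12 libraries, among genes that averaged at least 1 CPM. For IGF2 they were its second entry (0.0559) and APOBEC3B (0.188), and for PEG10 THBS4 (0.184) and MAGEA6 (0.188). MEST was nearest HOXA9 (0.122) and CTCFL (0.134), and CDKN1C nearest OSR2 (0.152) and LINC00543 (0.167). For KCNQ1OT1 they were ACTR5 (0.152) and HOXB-AS3 (0.168).

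**Figure D4:**
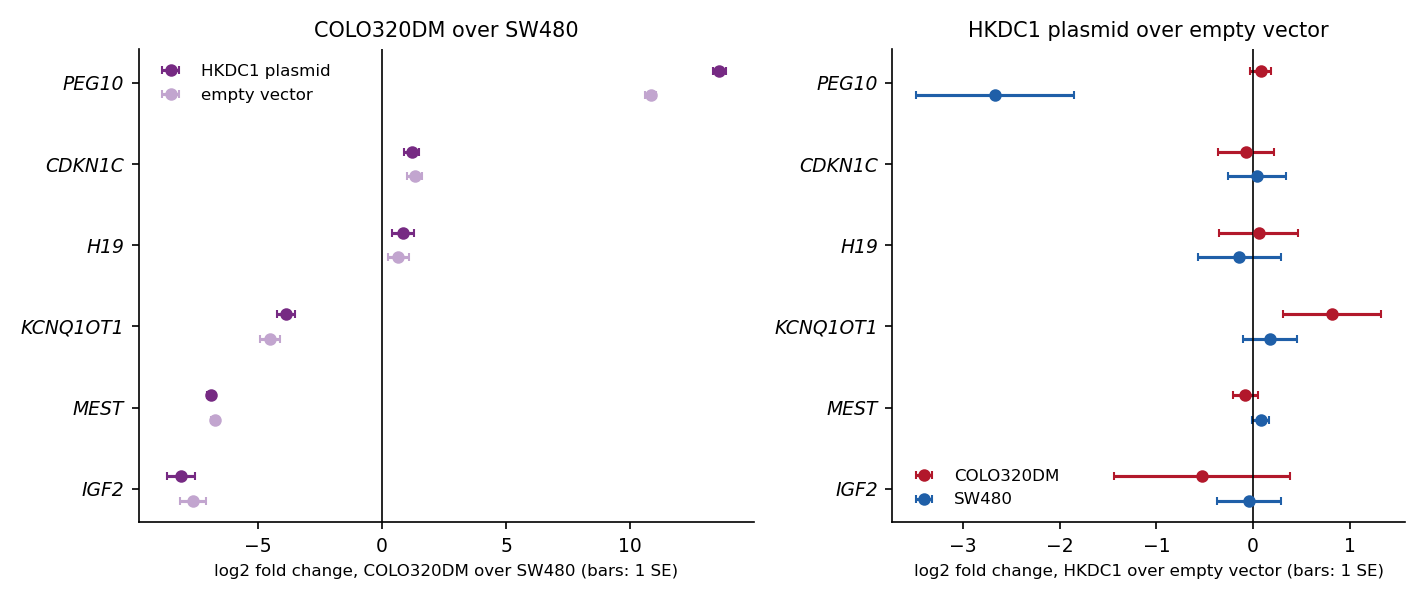
Fitted log2 fold changes of the 6 tested genes with bars of 1 SE, COLO320DM over SW480 (left) and HKDC1 plasmid over empty vector (right). On the left, the bars of PEG10 are smaller than the counting error of its few SW480 counts. Line differences run from −8.09 for IGF2 to 13.58 for PEG10, while plasmid values lie between −0.53 and 0.82 apart from PEG10 in SW480, which rests on 10 counts.

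The HKDC1 plasmid against the empty vector, the treatment that the study was built on, gave 0 of 6 called genes in COLO320DM, in SW480 or in the difference between lines. Across all genes edgeR called 0.00844%, 0.0127% and 0.00844%, that is 2, 3 and 2 of 23684, and with the replicate number as a block 0.076%, 0.76% and 0.0422%, with 0 of the 6 genes among them. At an unadjusted p under 0.05, edgeR had 312 genes in COLO320DM, 357 in SW480 and 379 for the difference. DESeq2 called 2, 4 and 3 genes and limma-voom 2, 3 and 2. IGF2 averaged 0.164 ± 0.0379 CPM with the HKDC1 plasmid and 0.234 ± 0.129 CPM with the empty vector in COLO320DM, and 44.9 ± 19.7 CPM with the HKDC1 plasmid and 46.3 ± 18.2 CPM with the empty vector in SW480 (SD, n = 3 each). In SW480 MEST averaged 223 ± 9.43 CPM with the HKDC1 plasmid and 211 ± 9.89 CPM with the empty vector (SD, n = 3 each), a log2 fold change of 0.08 (SE 0.09). KCNQ1OT1 in COLO320DM had 22 counts with the HKDC1 plasmid and 14 with the empty vector, a ratio of 1.80 with a 95% counting interval of 0.882 to 3.81. PEG10 in SW480 had 1 count with the HKDC1 plasmid and 9 with the empty vector, a ratio of 0.121 with a 95% counting interval of 0.00276 to 0.872 (edgeR unadjusted p = 0.00961, adjusted p = 1). The SE of the other plasmid values ran from 0.09 for MEST in SW480 to 0.91 for IGF2 in COLO320DM, so small changes in the genes at low counts were not detectable at this depth.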

How the data were processed

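The authors deposited raw counts per gene as 1 table for 12 libraries, with Ensembl identifiers and GRCh38 positions. Per the submitters' processing notes, tools included HISAT2 2.1.0 and limma, on GRCh38. The read counter, annotation release and strand setting are not given in the sources used here, and reads of overlapping genes cannot be told apart. Of 60623 identifiers, 58516 were found in GENCODE 29, 79.7% of them with the same start and end. Exon positions and exon lengths are those deposited with the counts. The test used edgeR 4.0.16 (R 4.3.3) on all libraries at once, one coefficient per group, with TMM factors, filterByExpr (minimum count 10, minimum total 15) and robust quasi-likelihood tests, with Benjamini-Hochberg adjustment over 23684 genes and a threshold of 0.05. The fit left 8 residual degrees of freedom, and its common coefficient of variation was 0.157. CPM are TMM-scaled. SE is the size of the log2 fold change over the square root of F. Where a group held few counts it can be smaller than the counting error alone. This was so for PEG10, SGCE and CTCFL between the lines, where the counting interval is the better guide to precision. Intervals and floors of 3 counts cover counting error only. Ratios of summed counts were scaled by effective library size.

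Replicates of a number were checked for pairing by correlating their deviations from group means. Between plasmids these were 0.40, 0.13 and 0.12 in COLO320DM and 0.72, 0.44 and 0.31 in SW480, all over 0.1. Replicate 2 against 3 across plasmids gave similar values, 0.16 and 0.15 in COLO320DM and 0.47 and 0.37 in SW480. The check thus sets replicate 1 apart but does not show that replicates 2 and 3 are paired by number. A fit with the replicate number as a block is given there as an alternative. Between lines they ran from 0.02 to 0.15 and the numbers were not taken as pairs.

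The genes and lists were chosen with earlier results of these data known. All 10 genes and the listed neighbours at their loci are named, but only some of the overlapping genes. From the other lists, up to 3 higher and 3 lower called genes by log2 fold change with the empty vector are named, and genes at 0 throughout. IGF2R, IGF1R, CTCF, ZFP57, WT1, GRB10 and the marker genes were named outside that rule, after their values were seen. The nearest genes in profile were limited to 2 for each called gene. Alternatives were DESeq2 1.42.0, limma-voom (limma 3.58.1), RLE size factors, library totals, other count filters, the 6 libraries compared alone, the replicate block and leaving out libraries. The fits were tested on simulated counts.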

Additional observations from a re-analysis of the deposited data

How the results depend on the processing

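The line differences of PEG10, CDKN1C, MEST, IGF2 and KCNQ1OT1 kept their direction and their call in all 21 alternatives, in both plasmid states. With the empty vector their log2 fold changes ran from 10.43 to 11.43 for PEG10, 1.10 to 1.77 for CDKN1C, −6.84 to −6.61 for MEST, −8.00 to −7.23 for IGF2 and −4.70 to −4.23 for KCNQ1OT1. H19 passed the threshold in 1 of 21 alternatives with the empty vector and in 5 of 21 with the HKDC1 plasmid. These were the replicate block in both (edgeR adjusted p = 0.0263 and 0.00568, over ranges of 0.0263 to 0.53 and 0.00568 to 0.258), and with the HKDC1 plasmid also the 6 compared libraries alone (0.0476), leaving out replicate 1 of all 4 groups (0.032) and the 2 single libraries named above. The labels do not say whether libraries of the same number were paired between the lines, and the main fit did not take them as pairs.

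For the plasmid, none of the 6 tested genes was called in any alternative run, which were 21 or 20 for each gene within a line and 20 for each difference. Over all genes, the count called was 18 in COLO320DM, 180 in SW480 and 10 for the difference with the replicate block, and 8, 720 and 75 without replicate 1 of all 4 groups. Leaving out 1 library at a time gave 3 to 5 called genes in SW480, the 5 without SW480 Entry replicate 1. Without replicate 1 of all 4 groups the sign turned for H19 in COLO320DM (−0.08), CDKN1C in SW480 (−0.02) and KCNQ1OT1 in the difference (−0.03). Leaving out 1 library, log2 values ran from −0.14 to 0.38 for H19 and −0.33 to 0.16 for CDKN1C in COLO320DM. In SW480 they ran from −0.36 to 0.26 for IGF2, −0.53 to 0.20 for H19, −0.19 to 0.21 for CDKN1C and −0.02 to 0.33 for KCNQ1OT1. For the difference they ran from −0.14 to 0.59 for H19 and −0.37 to 0.13 for CDKN1C. The cause was not tested. Depth limits PEG3, DLK1, MEG3 and SNRPN, whose counts set only upper bounds.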

Other observations

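Small annotated features inside the exons of H19 and IGF2 were looked at after their values were seen. ENSG00000274866, 69 bases that lie within an H19 exon on the opposite strand, had 9, 17 and 11 counts in COLO320DM with the HKDC1 plasmid and 8, 9 and 14 with the empty vector. SW480 had 0, 0 and 0 counts there with the HKDC1 plasmid and 0, 2 and 2 with the empty vector. ENSG00000275266, whose 71 bases also lie within H19 exon sequence on the opposite strand, varied more in COLO320DM. It had 2, 1 and 7 counts in COLO320DM with the HKDC1 plasmid and 0, 0 and 8 with the empty vector. In SW480 it had 0, 1 and 0 counts with the HKDC1 plasmid and 0, 0 and 1 with the empty vector. H19 itself did not pass the test between the lines. MIR675, whose 73 annotated bases all lie within H19 exon sequence, had 1 to 8 counts in COLO320DM and 0 to 4 in SW480. ENSG00000240801, a non-coding entry whose 373 exon bases all lie within IGF2, had 1 to 7 counts in COLO320DM and 135 to 445 in SW480.

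GRB10, an imprinted adaptor gene of insulin signalling, varied within SW480 as IGF2 did. It had 25.0 CPM in replicate 1 with the HKDC1 plasmid and 27.5 CPM in replicate 1 with the empty vector, and 64.6 to 88.6 CPM in the other SW480 libraries. CDKN1A was at 18.8 and 19.3 CPM in these replicate 1 libraries, and at 51.7 to 64.8 CPM in the others.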
